A study of Mus musculus with 12 samples.

Results

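Adenylate kinases move a phosphate between adenine nucleotides, and 8 genes that encode them in the mouse (Ak1, Ak3, Ak4, Ak5, Ak6, Ak7, Ak8 and Ak9) were followed through 4 groups of RNA-seq libraries. They are 8 of the 55335 genes in the count tables, taken by symbol. The set was chosen because Ak5 was lower in midostaurin-treated tumors, so the tumor values of Ak5 chose the set and are given as a description, with no test. The libraries come from CT26, a mouse colorectal cancer cell line, grown in a dish or as tumors under the skin of mice. Midostaurin is an inhibitor of several protein kinases, among them FLT3 and protein kinase C. The midostaurin tumors came from animals dosed at 40 mg/kg from day 7 after inoculation for 2 weeks, and the vehicle tumors from animals given vehicle. The midostaurin cells had received 1 µM of the drug for 48 h, and the DMSO cells the solvent. Each group had 3 libraries. The cells are labelled WT. The strain and age of the mice are not given in the sources used here, and nothing says whether the libraries of a group came from separate animals or cultures, so p-values measure only the spread between these libraries, which may be technical.

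An adenylate kinase turns ATP and AMP into a pair of ADP molecules, and runs the reaction backwards as easily. The AMP it makes when ATP runs low is the signal read by the AMP-activated protein kinase. The members differ in where they work. Ak1 is the common cytosolic enzyme, Ak3 and Ak4 sit in the mitochondrial matrix, and Ak3 prefers GTP as its phosphate donor. Ak5 is a cytosolic enzyme with a pair of kinase domains, known in human tissue mainly from brain. Ak6 is a nuclear protein also tied to ribosome assembly, Ak9 is a long protein with several kinase domains, and Ak7 and Ak8 are known from ciliated tissue.

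Total counts were 33399701 to 48109497 per tumor library and 34787389 to 38144039 per cell library. The cell libraries numbered 1, one from each treatment, stood apart from the other 4. Over 2-fold above those 4 lay 2.68% of 14538 genes in both libraries, and 2.43% lay over 2-fold below, so culture values that rest on them are also given without them. Epithelial markers were nearly absent from the cultured cells. Krt19 and Epcam had no count in any of the 6 cell libraries, and Cdh1 had none in 5 of them. Krt8 reached at most 1.02 CPM (the count as a share of its TMM-scaled library total), while Krt18 was present at 22.7 to 29.6 CPM. Tumor libraries hold host cells too, and in a whole tumor fewer cells of a type and less RNA per cell cannot be told apart.

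The loop that grips the phosphates of ATP, the P-loop, is the feature these proteins share in their coding sequence, and it shows how the abundant members relate to Ak5. The stretches below are the 24 coding bases of that loop, read on the coding strand from the GENCODE M21 annotation of mm10, with the codons of its central glycine and lysine in capitals. Ak5 has 2 such stretches in its 562 codons, at codons 139 to 146 and 383 to 390, where Ak1 (210 codons), Ak3 (227), Ak4 (223) and Ak6 (172) have 1 each.
Ak5, first loop: ggtggtccaggaagtGGAAAGggt
Ak5, second loop: ggtggccctggctctGGCAAAggc
Ak1: ggcggacctggctcaGGAAAGggc
Ak3: ggggccccgggctccGGCAAGggc
Ak4: gggccgcccggctctGGCAAGggc
Ak6: ggtacaccaggggttGGAAAAacc
The second loop of Ak5 shared 19 of 24 bases with Ak1 and also with Ak3, 18 with Ak4 and 16 with the first loop of Ak5 itself. Ak3 and Ak4 shared 20 of 24. Ak6 matched the other loops shown at 12 to 14 bases. The first Ak5 loop and the Ak1 and Ak6 loops are each split by an intron, as is the second Ak5 loop, while those of Ak3 and Ak4 lie within 1 exon.

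Ak5 (ENSMUSG00000039058, chr3:152462815-152668360 on the minus strand, mm10) was lower in every midostaurin tumor than in every vehicle tumor. Its raw counts were 524, 482 and 719 in midostaurin tumors 2, 3 and 4, against 1553, 1191 and 1400 in vehicle tumors 1, 2 and 3. After scaling for library size by TMM (the trimmed mean of M-values), these were 13.3, 14.97 and 15.3 CPM in the midostaurin tumors, against 39.4, 32.1 and 32.4 CPM in the vehicle tumors. The 2 groups did not overlap, and each kept close to its own mean, at 14.5 ± 1.05 CPM in midostaurin tumors and 34.6 ± 4.11 CPM in vehicle tumors (SD, n = 3 each). The fitted log2 fold change was -1.25 ± 0.12 (SE), a level 2.37-fold lower. Leaving out any 1 tumor library moved that value between -1.29 and -1.14, a range that rests on the same libraries that chose Ak5. In size of change Ak5 ranked 576th of the 16094 genes tested in tumors, 14% of those genes had midostaurin tumors entirely below vehicle tumors, and 13.2% entirely above.

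**Figure D1:**
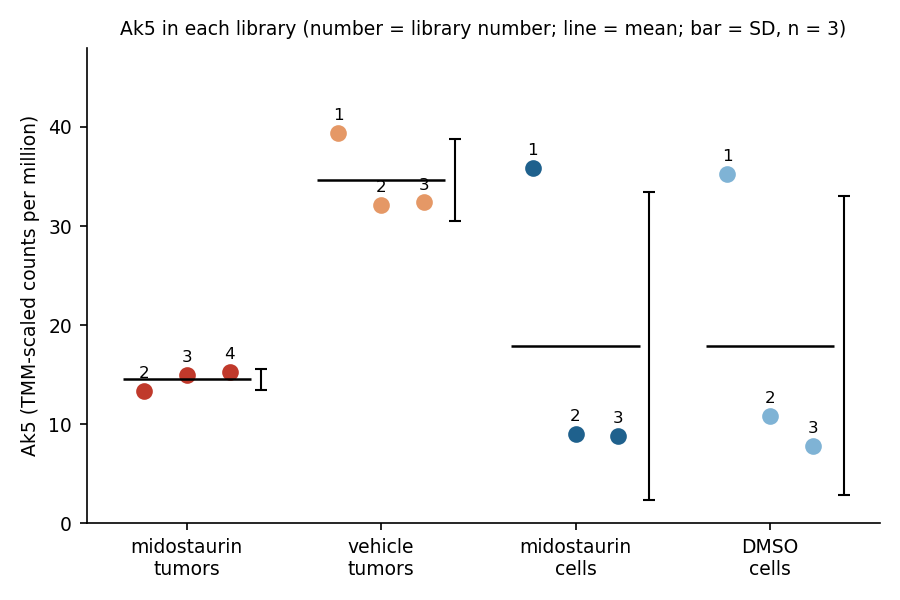
Ak5 in each of the 12 libraries, in TMM-scaled CPM on the vertical axis, by group on the horizontal axis. Each point is a library marked with its number, lines are group means and bars are the SD of 3 libraries. The midostaurin tumors sit at 13.3 to 15.3 CPM, below the vehicle tumors at 32.1 to 39.4 CPM, while in each cell group the library numbered 1 lies at 35.2 or 35.8 CPM and the other 2 lie below 11 CPM.

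Macrophage markers stood lower in the midostaurin tumors. Summed over 8 macrophage markers, the level was 311, 794 and 679 CPM in midostaurin tumors 2, 3 and 4, against 1263, 892 and 1184 CPM in vehicle tumors 1, 2 and 3. All 8 markers had a negative fitted change, with a median log2 fold change of -0.84 where the median over all genes was -0.01, although edgeR and limma-voom called none of them. DESeq2 called 3 of the 8 lower (Mrc1, C1qc and Trem2), where it called 5.36% of 16094 genes higher and 3.5% lower. Trem2 had a log2 fold change of -0.89 ± 0.19 and Mrc1 one of -1.68 ± 0.51, with edgeR adjusted p of 0.0936 and 0.152. None of these markers was at 0 in any tumor. Midostaurin tumor 2 was lowest among the tumors for the summed macrophage markers and for Ak5, at 13.3 CPM of Ak5. Vehicle tumor 1 was highest for both, at 39.4 CPM of Ak5. The part of macrophage content in the Ak5 values of tumors was not tested. In culture, where 4 or 5 of the 8 macrophage markers were at 0 in every library and their sum was 4.96 to 26.4 CPM, Ak5 was present at 7.77 to 35.8 CPM. Single tumors also stood apart in other markers. Neutrophil markers summed to 686 CPM in midostaurin tumor 3, against at most 38.7 CPM in the other tumors, keratinocyte markers to 746 CPM in vehicle tumor 2, and red cell markers to 2009 CPM in vehicle tumor 1. The part of neutrophils, keratinocytes and red cells in the Ak5 values of tumors was not tested. All 13 mitochondrially encoded mRNAs had negative changes in midostaurin tumors, with a median of -0.82, 0 called by edgeR and 1 (mt-Cytb) by DESeq2, and their part in the Ak5 values was not tested.

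In cultured cells the drug left no detectable mark on Ak5, and its level followed the library number. Midostaurin cells 1, 2 and 3 had 35.8, 9.04 and 8.84 CPM, against 35.2, 10.8 and 7.77 CPM in DMSO cells 1, 2 and 3. The groups overlapped fully, with means of 17.9 ± 15.5 CPM in midostaurin cells and 17.9 ± 15.1 CPM in DMSO cells (SD, n = 3 each). The spread within a group lay in the libraries numbered 1, which averaged 3.90-fold above the other 4, the 148th largest upward difference among 14538 genes. In edgeR's quasi-likelihood test the log2 fold change was -0.003 ± 0.79 (SE), with an adjusted p of 0.9999 over all genes tested. Same-numbered cell libraries deviated together, and with the number as a replicate block the change was -0.02 ± 0.09, with an edgeR adjusted p of 0.995. Without the libraries numbered 1 it was -0.05 ± 0.19, with an edgeR adjusted p of 0.9998.

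No member measured in culture passed the test under the drug. Of the 3 members that passed the filter on low counts in cells (Ak1, Ak5 and Ak6), 0 were called, where 0% of 14538 genes were called by edgeR and 75 had an unadjusted p under 0.05. DESeq2 and limma-voom each called 2 genes of the table and the block fit 8, none of them a member. Under the block, Ak1 changed by -0.03 ± 0.04 and Ak6 by -0.02 ± 0.04 on the log2 scale. The standard errors of all 3 were smaller with the block, for Ak5 0.09 with it against 0.79 without it.

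Set side by side, the 4 group levels of Ak5 were 14.5 ± 1.05 CPM in midostaurin tumors, 34.6 ± 4.11 in vehicle tumors, 17.9 ± 15.5 in midostaurin cells and 17.9 ± 15.1 in DMSO cells. Vehicle tumors stood highest and midostaurin tumors lowest by the mean. The 3 lower groups did not differ beyond the spread of the cell libraries, and vehicle tumors overlapped with the libraries numbered 1. The comparison of Ak5 between tumors and culture turned on those libraries. The log2 difference of vehicle tumors minus DMSO cells was 0.95 ± 0.61 with them and 1.91 ± 0.16 without both. For midostaurin tumors minus midostaurin cells it was -0.30 ± 0.61 with them and 0.71 ± 0.16 without both. These values use the tumor libraries that chose Ak5 and carry no test. Tumors and cells were also counted in separate tables, so growth in a mouse and the preparation of each experiment cannot be told apart.

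As part of the family, Ak5 made up 7.47, 7.66 and 9.11% of the summed TPM (a level scaled by transcript length and by library) of the 8 genes in midostaurin tumors 2, 3 and 4, against 18.2, 15.8 and 17.4% in vehicle tumors 1, 2 and 3. In midostaurin cells 1, 2 and 3 it made up 17.3, 4.69 and 4.66%, against 17.1, 5.33 and 4.07% in DMSO cells 1, 2 and 3. The vehicle tumors and the cell libraries numbered 1 thus had like shares of Ak5, at 15.8 to 18.2%. Ak6 and Ak1 were the bulk of the family in every library. Ak6 held 39.5 to 54.5% and Ak1 26.5 to 55.6% of the summed TPM.

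**Figure D2:**
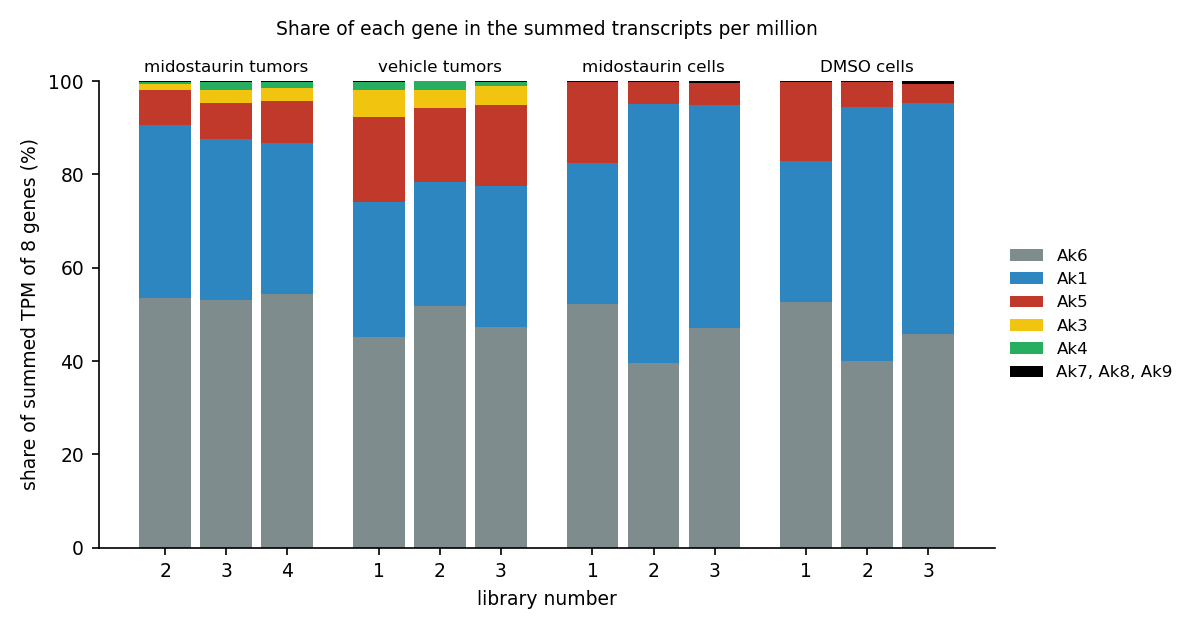
Share of each gene in the summed TPM of the 8 adenylate kinase genes (vertical axis, %), with 1 bar per library (horizontal axis, library number) and libraries grouped by condition. The Ak5 segment is 7.47 to 9.11% in midostaurin tumors and 15.8 to 18.2% in vehicle tumors, and Ak3 and Ak4 are visible in tumors only.

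The 5 genes with profiles nearest to Ak5 over the 12 libraries were Dctd, Masp1, Srm, Slc1a5 and Shmt2. Likeness was the root mean square difference of log2(CPM + 0.5), each gene centred on its own mean, among 10244 genes with a mean of at least 5 CPM. Genes without a symbol and predicted genes (Gm or Rik symbols) were left out. Dctd, a deoxycytidylate deaminase, differed from Ak5 by 0.22, Masp1, a serine protease of the complement lectin pathway, by 0.24, and Srm, the spermidine synthase, by 0.29. Slc1a5, a glutamine transporter, differed by 0.30 and Shmt2, a mitochondrial serine hydroxymethyltransferase, by 0.31. The median candidate differed by 0.89. Dctd had 23.8, 18.5 and 23.97 CPM in midostaurin tumors 2, 3 and 4, against 40.9, 38.1 and 42.5 CPM in vehicle tumors 1, 2 and 3. In culture it had 41.96, 12.5 and 12.99 CPM in midostaurin cells 1, 2 and 3, against 39.4, 15.1 and 13.3 CPM in DMSO cells 1, 2 and 3. The nearest profiles thus shared both the lower level in midostaurin tumors and the high level in the cell libraries numbered 1, since closeness was measured on those very values.

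**Figure D3:**
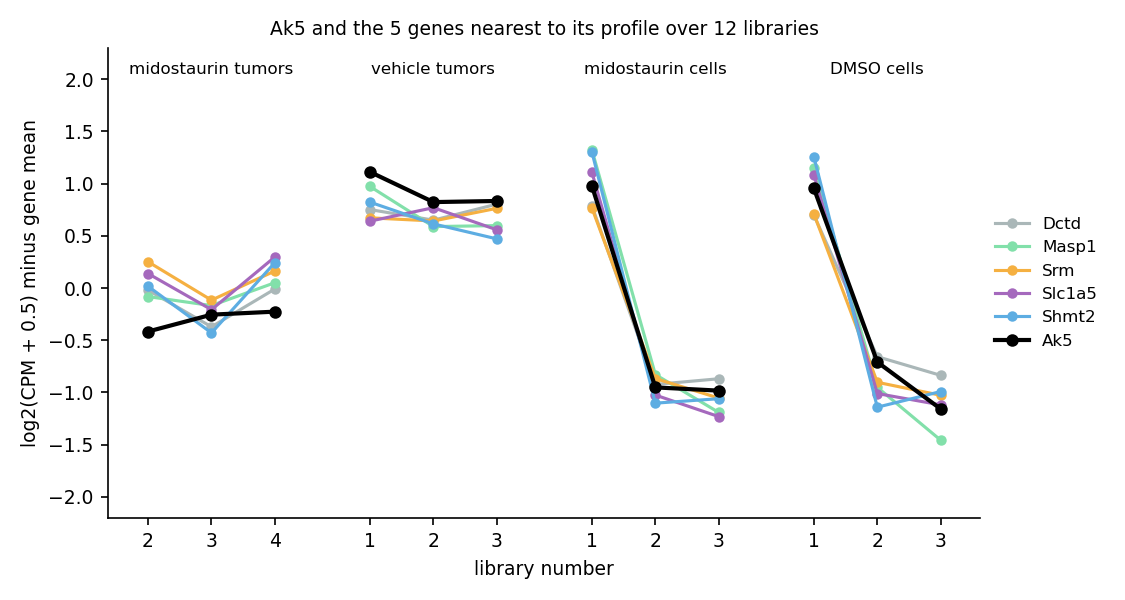
Ak5 (black) and its 5 nearest profiles, as log2(CPM + 0.5) minus the mean of each gene over 12 libraries (vertical axis), by library number within each group (horizontal axis). All 6 genes sit lower in midostaurin tumors than in vehicle tumors and higher in the cell libraries numbered 1 than in the other cell libraries.

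Among the other members, edgeR called none with midostaurin in tumors. Of the 4 tested beside Ak5 (Ak1, Ak3, Ak4 and Ak6), 0 were called by edgeR, where 0.0435% of 16094 genes were called (0.0311% higher and 0.0124% lower) and 3205 had an unadjusted p under 0.05. DESeq2, which called 1426 genes (8.86%), called Ak3, and limma-voom, which called 16, called none of the 4. Ak3 had an unadjusted p of 0.0115 in edgeR.

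Ak1 (ENSMUSG00000026817, chr2:32621758-32635058), the cytosolic enzyme, had 50.4, 51.5 and 41.1 CPM in midostaurin tumors 2, 3 and 4, against 47.7, 41.1 and 43.05 CPM in vehicle tumors 1, 2 and 3. These overlapped, and the log2 fold change was 0.12 ± 0.11, with an edgeR adjusted p of 0.585. In culture, midostaurin cells 1, 2 and 3 had 47.5, 81.6 and 69.3 CPM, against 47.1, 84.03 and 71.8 CPM in DMSO cells 1, 2 and 3. The libraries numbered 1, which were the highest for Ak5, were the lowest for Ak1, at 0.617 times the mean of the other 4.

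Between tumors and culture, 2 members were well measured at both sites and had no part in the choice of the set, Ak1 and Ak6. In edgeR, 1 of the 2 (Ak1) was lower in vehicle tumors than in DMSO cells, where 44.2% of 16965 genes were called, 24.5% higher and 19.7% lower. Neither was called between midostaurin tumors and midostaurin cells, where 43.3% were called, 24.2% higher and 19.1% lower. Ak1 averaged 43.95 ± 3.37 CPM in vehicle tumors and 67.7 ± 18.8 CPM in DMSO cells (SD, n = 3 each). The log2 difference was -0.62 ± 0.23, with an edgeR adjusted p of 0.0463. That call depended on the settings. It was lost with another scaling (adjusted p 0.0615), with no filter (0.0808), with limma-voom (0.0659) and on leaving out any library but DMSO cells 1 (0.0754 to 0.178). Without both libraries numbered 1, the difference was -0.82 ± 0.12. That leave-out was chosen after these libraries were seen to stand apart. They were the lowest cell libraries for Ak1, so the value is a description without a test. The same contrast under the drug gave 47.6 ± 5.70 CPM in midostaurin tumors and 66.1 ± 17.3 CPM in midostaurin cells, a log2 difference of -0.47 ± 0.23 with an edgeR adjusted p of 0.116. It passed without midostaurin cells 1, the lowest library of its group for Ak1, with an edgeR adjusted p of 0.0275. Without both libraries numbered 1 the log2 difference was -0.65 ± 0.12, a description for the same reason.

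Ak6 (ENSMUSG00000078941, chr13:100650979-100666359) varied little between groups. It had 77.7, 84.4 and 74.3 CPM in midostaurin tumors 2, 3 and 4, against 79.5, 85.7 and 71.5 CPM in vehicle tumors 1, 2 and 3. In culture it had 87.99, 62.0 and 72.5 CPM in midostaurin cells 1, 2 and 3, against 88.4, 65.9 and 71.4 CPM in DMSO cells 1, 2 and 3. The groups overlapped everywhere, and the log2 fold change in tumors was 0.004 ± 0.09, with an edgeR adjusted p of 0.988. Vehicle tumors minus DMSO cells gave 0.07 ± 0.15, and midostaurin tumors minus midostaurin cells gave 0.09 ± 0.15, with edgeR adjusted p of 0.72 and 0.659. The Ak6 gene shares 1564 exon bases on the same strand with Taf9, a subunit of the general transcription machinery, so the counts of the 2 genes rest on how reads were divided. Taf9 itself was given 7.40 ± 0.28 CPM in midostaurin tumors and 6.28 ± 1.32 CPM in vehicle tumors. Processed pseudogenes, among them Gm12372, which matches at 98.5% over 756 bases, are a second place where Ak6 reads may be divided.

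**Figure D4:**
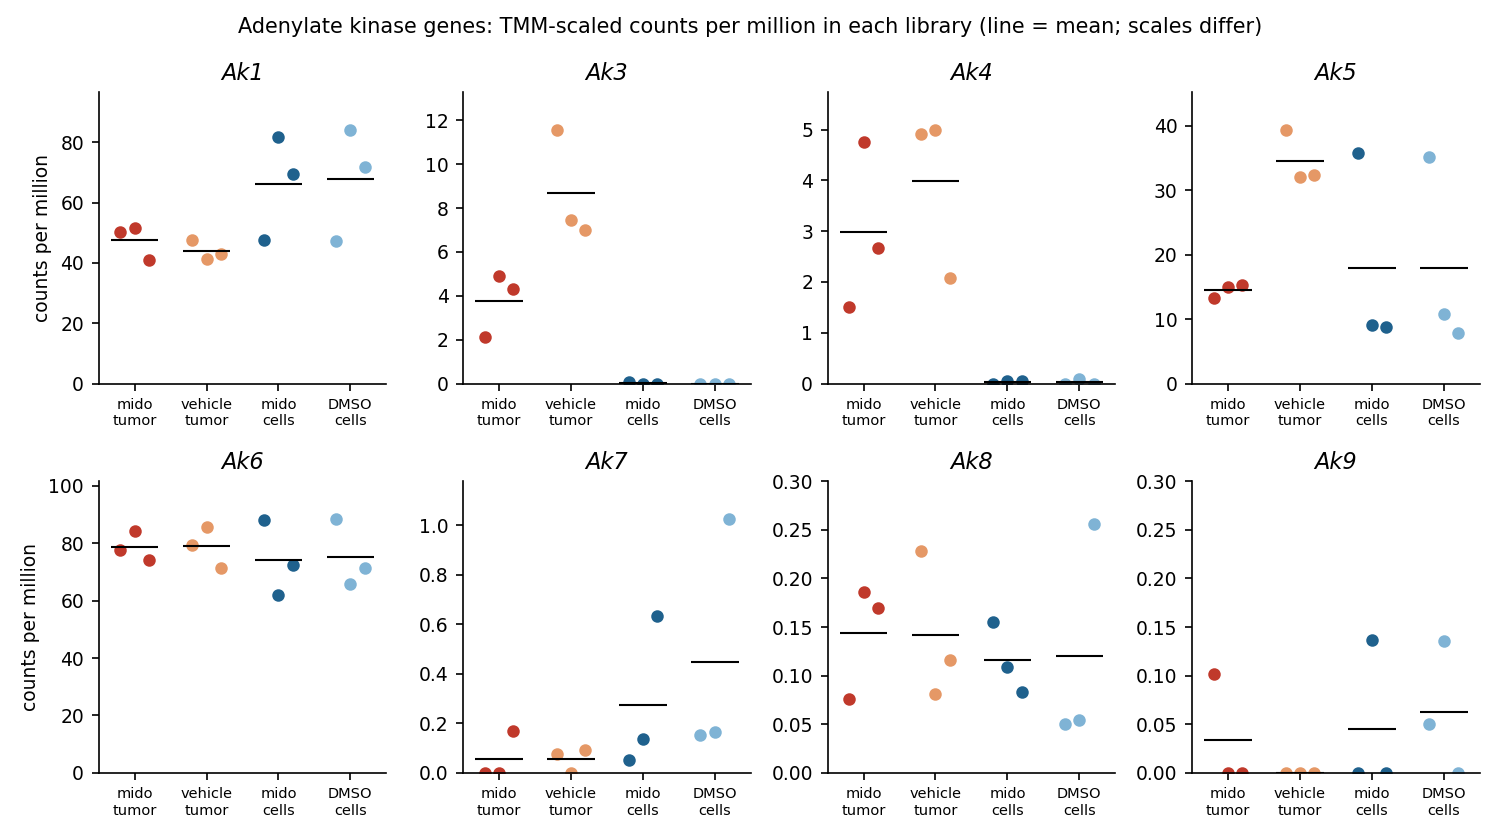
TMM-scaled CPM (vertical axis, a scale of its own in each panel) of the 8 adenylate kinase genes in every library, by group (horizontal axis). Points are libraries and lines are group means. Ak3 and Ak4 are near 0 in both cell groups and present in tumors, Ak1 and Ak6 overlap between drug groups, and Ak7, Ak8 and Ak9 stay at or below 1.02 CPM.

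The mitochondrial matrix members Ak3 and Ak4 were nearly silent in cultured CT26 cells and present in every tumor. Ak3 (ENSMUSG00000024782, chr19:29020833-29047961) had 83, 158 and 202 counts in midostaurin tumors 2, 3 and 4, against 456, 276 and 303 in vehicle tumors 1, 2 and 3. In culture it had 3, 0 and 0 counts in midostaurin cells 1, 2 and 3, against 0 in all 3 libraries of DMSO cells. Ak4 (ENSMUSG00000028527, chr4:101419277-101466995) had 59, 153 and 126 counts in midostaurin tumors 2, 3 and 4, against 194, 185 and 90 in vehicle tumors 1, 2 and 3. In culture it had 0, 2 and 2 counts in midostaurin cells 1, 2 and 3, against 0, 3 and 0 in DMSO cells 1, 2 and 3.

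Both genes passed the low-count filter only through the tumors, so no test of tumors against culture is given for them and the sizes are a description. For Ak3, vehicle tumors were at least 321-fold higher than DMSO cells, taking 3 counts over the group as the floor for a total of 0, and the exact counting interval of that ratio began at 260.7. Midostaurin tumors were 139-fold above midostaurin cells for Ak3, with a counting interval of 47.2 to 676. For Ak4 the ratios were 145.5 (49.5 to 708) for vehicle tumors over DMSO cells and 79.5 (30.8 to 293) for midostaurin tumors over midostaurin cells. The 8 macrophage markers summed to 311 to 1263 CPM in the tumors and 4.96 to 26.4 CPM in culture, and whether Ak3 and Ak4 RNA came from host or cancer cells was not tested. Per transcript length, Ak3 averaged 3.31 TPM in midostaurin tumors and 7.52 TPM in vehicle tumors, and Ak4 averaged 1.76 TPM in midostaurin tumors and 2.31 TPM in vehicle tumors. Both were below Ak5, at 11.7 TPM in midostaurin tumors and 27.4 TPM in vehicle tumors.

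With the drug, Ak3 averaged 3.77 ± 1.47 CPM in midostaurin tumors and 8.67 ± 2.51 CPM in vehicle tumors (SD, n = 3 each), and the groups did not overlap, as for 14% of all genes in this direction. The log2 fold change was -1.20 ± 0.35. It missed the threshold in edgeR, with an adjusted p of 0.144, and passed it in DESeq2, with an adjusted p of 0.0155. Midostaurin tumor 2 was lowest for Ak3, at 2.11 CPM, and for the summed macrophage markers. Vehicle tumor 1 was highest for both, at 11.6 CPM of Ak3. These tumors were also the lowest and the highest for Ak5. The part of macrophage content in the Ak3 values was not tested. Ak4 averaged 2.98 ± 1.65 CPM in midostaurin tumors and 4.00 ± 1.66 CPM in vehicle tumors, which overlapped. Its log2 fold change was -0.42 ± 0.49, with an edgeR adjusted p of 0.674. A processed pseudogene, Ak3l2-ps, matches Ak4 at 99.6% over 672 bases and held 6 counts in all the tumors together and 0 in the cells. Ak3 exons share 430 bases with Cdc37l1 and 283 with 1700018L02Rik on the opposite strand, and Ak5 exons 12 with Zzz3 and 33 with AI115009, where reads could be told apart only by strand.

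Ak4 is known as a gene induced by low oxygen, and its promoters and the one of Ak3 are shown because both genes were near 0 in culture and present in tumors. The windows run from 250 bases before to 50 after an annotated start (RefSeq, GRCm38.p6), and capitals mark the letters ACGTG or GCGTG and their reverse complements CACGT and CACGC, the core bound by hypoxia-inducible factors. These letters were found in all 4 windows of Ak4, the first 3 of which are nearly the same stretch, and not in the window of Ak3. They were also found in 3 of the 4 windows of Ak1 and in those of Ak6, Ak7 and Ak9, so in 10 of the 13 windows of the family. The 13 windows cover 7 members, and no entry was found for Ak5. The window of Ak4 shown holds ACGTG and CACGT overlapping as CACGTG, letters that other factors also recognise.
Ak4, chr4:101419453-101419752, plus strand: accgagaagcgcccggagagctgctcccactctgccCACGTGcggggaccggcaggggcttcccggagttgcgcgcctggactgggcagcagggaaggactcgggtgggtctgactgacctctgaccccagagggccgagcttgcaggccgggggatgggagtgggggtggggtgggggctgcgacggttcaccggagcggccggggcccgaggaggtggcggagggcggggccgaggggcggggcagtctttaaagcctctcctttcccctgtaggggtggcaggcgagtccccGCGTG
Ak3, chr19:29047912-29048211, minus strand: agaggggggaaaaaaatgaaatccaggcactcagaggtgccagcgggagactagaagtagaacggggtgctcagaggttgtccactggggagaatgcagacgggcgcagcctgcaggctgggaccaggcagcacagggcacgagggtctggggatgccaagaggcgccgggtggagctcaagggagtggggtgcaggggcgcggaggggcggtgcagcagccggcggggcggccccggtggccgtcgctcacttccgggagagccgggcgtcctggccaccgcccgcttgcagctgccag
Of 32851 promoters of the same length, 43.8% held these letters. Each marked string contains CG, of which those promoters had a median of 7, the Ak4 window shown 25 and the Ak3 window 21. The match is a description of the sequence.

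Of 17 tested hypoxia-inducible genes, Adm and Egln3 passed the filter only through the tumors. Of the other 15, edgeR called 11 higher and 1 lower in vehicle tumors than in DMSO cells, where 24.5% of all genes were called higher and 19.7% lower. Their median log2 difference was 1.29 where all genes had 0.04. Between midostaurin tumors and midostaurin cells, 12 of the 15 were higher and 0 lower, where 24.2% of all genes were called higher and 19.1% lower, and the median was 1.77 where all genes had 0.03. With the drug in tumors 0 of the 17 were called by edgeR, DESeq2 or limma-voom, and the median was 0.39 where all genes had -0.01. P4ha1, a collagen prolyl hydroxylase subunit, had a log2 fold change of 0.35 ± 0.14, and Kdm3a, a histone demethylase, one of 0.55 ± 0.23, with edgeR adjusted p of 0.242 and 0.247.

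Ak7, Ak8 and Ak9 were close to or at 0 in every library and passed no low-count filter. The largest value was that of Ak7 in DMSO cells 3, at 36 counts or 1.02 CPM, followed by midostaurin cells 3, at 23 counts or 0.636 CPM. Every other library had at most 8 counts of Ak7. Ak8 had 3 to 8 counts in midostaurin tumors, 3 to 9 in vehicle tumors, 3 to 6 in midostaurin cells and 2 to 9 in DMSO cells. Ak9 had no count in 8 of the 12 libraries and at most 5 in the others. For Ak8 a difference between groups was not detectable at this depth. Ak9 had 0 counts over the vehicle tumors and 7 over the DMSO cells, a ratio whose counting interval ended at 0.646, with all 7 in DMSO cells 1 and 2, and no test across libraries was made. Of the cilium and axoneme list, only Tekt2, a tektin of the axoneme, was tested in tumors, at 1.49 ± 0.23 CPM in midostaurin tumors and 2.67 ± 0.38 CPM in vehicle tumors (edgeR adjusted p 0.142).

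The drug response of the members in tumors was also set against that in cells. Ak3 and Ak4 had too few counts in culture for a response there. Of the 2 members left beside Ak5 (Ak1 and Ak6), 0 were called by edgeR, where 0.00589% of 16965 genes were called and 1032 had an unadjusted p under 0.05. DESeq2 called 99 genes and limma-voom 1, neither Ak1 nor Ak6 among them. For Ak5 the difference was -1.25 ± 0.86, as a description. With the replicate block in cells it was -1.24 ± 0.17, and without both cell libraries numbered 1 it was -1.19 ± 0.22. For Ak1 it was 0.15 ± 0.32 and for Ak6 0.02 ± 0.21, with edgeR adjusted p that rounded to 1.00 for both.

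**Figure D5:**
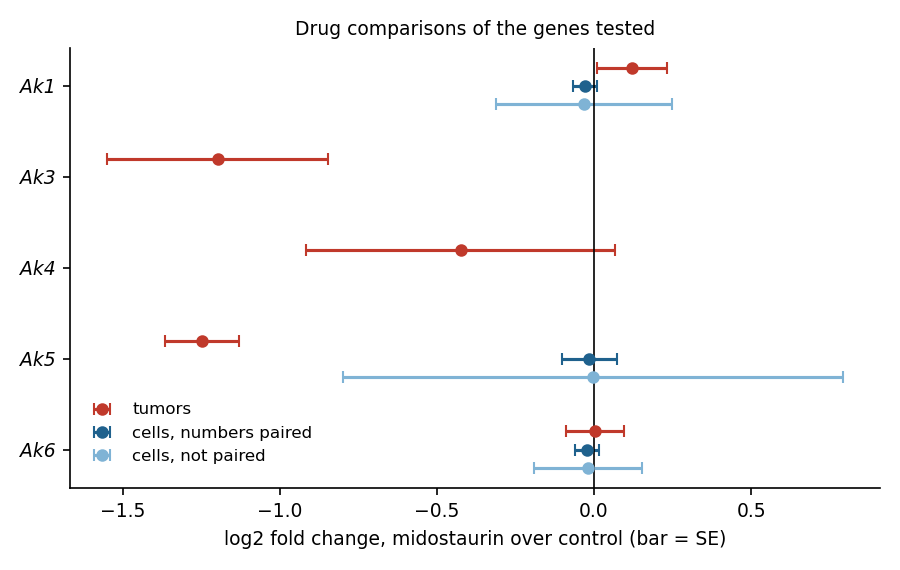
Log2 fold change of midostaurin over control (horizontal axis, bars are the SE) for each member that passed the low-count filter (vertical axis), in tumors, in cells with same-numbered libraries paired, and in cells without pairing. Ak5 lies at -1.25 in tumors and near 0 in both fits of the cells, Ak3 at -1.20 in tumors with a wider bar, and Ak1 and Ak6 lie near 0. Ak3 and Ak4 were not tested in cells.

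Around the adenylate kinases, edgeR called no other enzyme of nucleotide phosphate transfer with the drug in tumors or in cells, while DESeq2 called several lower in tumors and none in cells. Among 5 other nucleoside monophosphate kinases in tumors, edgeR called 0 and DESeq2 2 (Dtymk and Guk1), both lower, where DESeq2 called 3.5% of all genes lower. Of the 5, 3 had negative changes, and the median log2 fold change was -0.26. Dtymk, the thymidylate kinase, averaged 62.97 ± 8.24 CPM in midostaurin tumors and 89.6 ± 6.55 CPM in vehicle tumors (log2 fold change -0.50 ± 0.12, edgeR adjusted p 0.108, DESeq2 adjusted p 0.00712). Guk1, the guanylate kinase, averaged 20.3 ± 1.06 CPM in midostaurin tumors and 26.5 ± 1.31 CPM in vehicle tumors (-0.38 ± 0.09, edgeR adjusted p 0.109, DESeq2 adjusted p 0.0158). For both genes every midostaurin tumor was below every vehicle tumor, as for 14% of all genes.

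The 6 nucleoside diphosphate kinases pass phosphate from ATP to the other nucleotides. In tumors edgeR called 0 of them. DESeq2 called 3 lower (Nme1, Nme2 and Nme4), where it called 3.5% of all genes lower. Of the 6, 5 had negative changes, with a median of -0.35. Nme1 had 92.3, 100.2 and 104.4 CPM in midostaurin tumors 2, 3 and 4, against 130.2, 129.2 and 126.9 CPM in vehicle tumors 1, 2 and 3. Its log2 fold change was -0.37 ± 0.07, with an edgeR adjusted p of 0.0874 and a DESeq2 adjusted p of 0.000712. Nme4, the mitochondrial member, had 0.356 to 0.435 CPM in midostaurin tumors and 1.11 to 2.69 CPM in vehicle tumors (edgeR adjusted p 0.0959, DESeq2 adjusted p 0.00680), and no count in any cell library. Of 3 creatine kinases, which buffer ATP with creatine phosphate, edgeR called 0 and DESeq2 called Ckb lower. Ckb had 7.61, 9.47 and 14.2 CPM in midostaurin tumors 2, 3 and 4, against 32.6, 22.2 and 18.8 CPM in vehicle tumors 1, 2 and 3, with an edgeR adjusted p of 0.108 and a DESeq2 adjusted p of 0.00108. It was at or near 0 in culture, like Ak3 and Ak4.

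On the AMP side of the reaction, edgeR and limma-voom called no gene with the drug in tumors. DESeq2 called 3 lower, Prkag3 of 8 tested genes, Aprt of 11 and Ada of 9, where it called 3.5% of all genes lower. Of 8 tested subunits and upstream kinases of the AMP-activated protein kinase, 0 were called by edgeR in tumors, 4 changes were negative, and the median was 0.02. The 2 with the smallest p, Prkag3 and Prkag2, regulatory subunits, had log2 fold changes of -1.78 ± 0.54 and -0.41 ± 0.13, with edgeR adjusted p of 0.152 and 0.167, and Prkag3 had a DESeq2 adjusted p of 0.0366. Of these 8, 2 were higher and 2 lower in vehicle tumors than in DMSO cells in edgeR, close to the 24.5% and 19.7% of all genes. Among 11 genes of AMP synthesis, removal and salvage in tumors, 0 were called by edgeR and 9 had negative changes, with a median of -0.17. Aprt, which salvages adenine to AMP, averaged 188.8 ± 10.4 CPM in midostaurin tumors and 225.9 ± 7.14 CPM in vehicle tumors (log2 fold change -0.25 ± 0.07, edgeR adjusted p 0.144, DESeq2 adjusted p 0.0265). Nt5c3b, a cytosolic nucleotidase, had a log2 fold change of -0.33 ± 0.11 (edgeR adjusted p 0.164). Of 12 such genes, 2 were higher and 2 lower in vehicle tumors than in DMSO cells, and 2 were higher and 4 lower in midostaurin tumors than in midostaurin cells, where 24.2% of all genes were higher and 19.1% lower. Outside the cell, where AMP is turned into adenosine, 0 of 9 tested genes were called by edgeR with the drug in tumors, with a median of -0.08. Ada, which removes adenosine, had -0.82 ± 0.20 (edgeR adjusted p 0.115, DESeq2 adjusted p 0.0109), and the nucleoside transporter Slc29a1 had -0.40 ± 0.17 (edgeR adjusted p 0.248).

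Ak5 is best known from neurons, so neuronal markers were read beside it. Of 12 markers, 6 were tested in tumors, edgeR called 0 and DESeq2 called Nefm and Nefl higher, where it called 5.36% of all genes higher. Of the 6, 5 had positive changes, with a median of 0.86, and Map2, a microtubule-associated protein, had the largest in size, at -2.32 ± 0.90 (edgeR adjusted p 0.218). Map2 stood at 0.153, 0.124 and 0.298 CPM in midostaurin tumors 2, 3 and 4, against 0.355, 2.32 and 0.324 CPM in vehicle tumors 1, 2 and 3. Nefm, the medium neurofilament chain, averaged 53.6 ± 24.9 CPM in midostaurin tumors and 14.6 ± 3.42 CPM in vehicle tumors (edgeR adjusted p 0.0841, DESeq2 adjusted p 8.17e-07). Nefl, the light chain, averaged 44.8 ± 22.4 CPM in midostaurin tumors and 13.9 ± 5.11 CPM in vehicle tumors (edgeR adjusted p 0.115, DESeq2 adjusted p 0.000318). In the cultured cells, which also expressed Nefm at 28.6 to 46.2 CPM, 6 or 7 of the 12 neuronal markers had no count in a library. The part of neuronal cells in the Ak5 values was not tested.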

How the data were processed

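RNA-seq counts were analysed for 12 libraries in 4 groups of 3. The authors deposited whole-number counts per gene, 55335 genes in each of 2 tables, 1 for cells and 1 for tumors. Per the submitters' processing notes, FastQC 0.11.2, Bowtie2 2.3.4, RSEM and mm10 were used; the roles of the tools, the annotation and the strand setting are not given in the sources used here. Per the labels' protocols, the libraries were directional and poly(A)-selected. Where reads fit several genes, RSEM divides them by an estimate. Symbols were found for 99.7% of the gene identifiers, leaving 181 without. The labels number the midostaurin tumors 1 to 3 and the columns 2 to 4; columns 2 and 3 were matched to labels, and column 4 was used by its group alone.

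Counts were tested with edgeR 4.0.16 (R 4.3.3; filterByExpr, TMM scaling, quasi-likelihood test, Benjamini-Hochberg adjustment over all genes tested, threshold 0.05). The SE of an edgeR log2 fold change was taken from the test, as the size of the change over the square root of F. For Ak5 in tumors it describes the libraries that chose the gene and is no test. Cells and tumors were fitted separately, and the difference between their responses and both comparisons of tumors with culture in 1 fit of all 12 libraries. Alternatives were DESeq2 1.42.0, limma-voom (limma 3.58.1), other scaling, no filter, summed overlapping genes, leaving out libraries, and a replicate block. Leaving out both cell libraries numbered 1 was chosen after they were seen to stand apart. The fits were also run on simulated counts drawn independently for each library. That simulation held no shared deviation of same-numbered cell libraries, so it cannot show how the fits behave under it. Same-numbered cell libraries deviated together across genes (correlations 0.90, 0.72 and 0.70), so the block is shown for cells, the pairing being read from the data and not from the labels; for tumors 2 and 3 the correlation was -0.05. Printed CPM use TMM over all 12 libraries, and TPM use summed exon lengths (GENCODE M21). Counting intervals are 95% and exact and cover counting error only. Transcripts were compared with BLAST 2.17.0. The members and all gene lists were chosen with earlier results of these data known. Genes named by rule are the 8 members and, from each list, the 2 genes with the smallest tumor p. The rule also takes the 5 nearest to Ak5 in profile and same-strand overlaps. Map2, C1qc, Nme2, mt-Cytb, the pseudogenes and the culture values of Ckb were chosen after their values were seen. Opposite-strand overlaps, Krt18, Krt19, Epcam, Adm and Egln3 are also named outside the rule.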

Additional observations from a re-analysis of the deposited data

How the results depend on the processing

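Called genes in cells numbered 0 with edgeR, 2 with DESeq2, 2 with limma-voom, 8 with the replicate block and 1 without both libraries numbered 1. In tumors, 7 were called, against 1426 with DESeq2, 16 with limma-voom, 0 with no low-count filter, 0 with the replicate block on tumors 2 and 3, and 0 to 1 on leaving out any 1 library. Each of the 6 leave-outs in tumors gave fewer calls than the whole set. For the difference of responses 1 was called, against 99 with DESeq2, 16 with the replicate block in cells, 0 without both cell libraries numbered 1, and 1 to 6 on leaving out 1 library. The counts between tumors and culture stayed within 1.5 times under every alternative run. Ak5 between midostaurin tumors and midostaurin cells turned to 0.0137 with limma-voom and to 0.71 without both cell libraries numbered 1, and ranged from -0.63 to 0.70 on leaving out 1 library. Signs near 0 also turned on leaving out 1 library. In cells, Ak1 ranged from -0.24 to 0.16, Ak5 from -1.01 to 0.95 and Ak6 from -0.16 to 0.11. In tumors Ak6 ranged from -0.0547 to 0.0745. For the difference, Ak1 ranged from -0.043 to 0.35 and Ak6 from -0.12 to 0.16, and between tumors and culture Ak6 ranged from -0.0172 to 0.20 for controls and from -0.0276 to 0.23 under the drug. The replicate block changed no call of Ak1, Ak3, Ak4 or Ak6 in tumors, of Ak1, Ak5 or Ak6 in cells, or of Ak1 or Ak6 for the difference. The cause of these shifts was not tested. Depth limits Ak7, Ak8 and Ak9 in all groups, and Ak3 and Ak4 in culture.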
